A study of Mus musculus with 2 samples.

Results

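Cycling regulatory T (Treg) cells were examined here: 244 of the 9844 quality-filtered cells of 1 pooled library of tumor T cells. Members were chosen cell by cell from their own counts of unique molecular identifiers (UMIs). A cell counted as a Treg cell with at least 1 UMI of Foxp3 and none of Cd8a or Cd8b1, and 2833 cells did. It counted as cycling if Mki67, Top2a, Cdk1 and Birc5 together had at least 3 UMIs, and as non-cycling if that sum was 0, which held for 2072 Treg cells. The remaining 517 Treg cells, with a sum of 1 or 2, belonged to neither group.

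The T cells were sorted from transplanted mouse melanomas of the B16 line (B16) and of a B16 line that expresses secreted interleukin-33 (B16-IL33, written B16–IL-33 in the study), and were hashed with tagged antibodies, pooled and loaded together. The study's tumors were grown in C57BL/6 mice. No number of mice per tag is given in the labels, and all cells went through 1 gene expression library, 1 hashtag library and 1 T cell receptor (TCR) library. There are therefore no replicates and no p-values below. Ranges in parentheses are 95% intervals that cover counting error only.

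Treg cells are CD4+ T cells that restrain immune responses and depend on the transcription factor FOXP3. In tumors they are often activated and can divide. A dividing cell copies its DNA in S phase, with the MCM helicase, DNA polymerases and enzymes of nucleotide supply, and then separates the chromosomes in mitosis, with cyclin B, CDK1, centromere proteins and kinesins. E2F factors drive many genes of the first step. The DREAM and MMB complexes work through CCAAT boxes and cell cycle genes homology regions in promoters of many genes of the second.

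Promoters of genes on both sides of this division are shown because they are the sequences from which these programs are read. Each is the 250 bases before a transcript start of RefSeq (GRCm38.p6), 5′ to 3′ on the strand of the gene. Capitals mark matches on either strand to the CCAAT box, to the homology region written TTTGAA, or to 2 forms of the E2F site, which read TTCCCGC in one form and TTGGCGC in the other. The last form can share its letters with a CCAAT box on the other strand. Ccnb2 encodes cyclin B2 (chr9:70421555-70421804, minus strand), Cenpf a centromere protein (chr1:189688087-189688336, minus strand) and Mcm5 a subunit of the MCM helicase (chr8:75109259-75109508, plus strand).
Ccnb2: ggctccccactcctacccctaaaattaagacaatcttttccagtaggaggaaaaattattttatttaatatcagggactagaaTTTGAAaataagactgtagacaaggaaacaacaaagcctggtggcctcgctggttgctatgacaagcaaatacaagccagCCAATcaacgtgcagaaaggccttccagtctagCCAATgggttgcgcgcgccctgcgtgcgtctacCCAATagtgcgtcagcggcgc
Cenpf: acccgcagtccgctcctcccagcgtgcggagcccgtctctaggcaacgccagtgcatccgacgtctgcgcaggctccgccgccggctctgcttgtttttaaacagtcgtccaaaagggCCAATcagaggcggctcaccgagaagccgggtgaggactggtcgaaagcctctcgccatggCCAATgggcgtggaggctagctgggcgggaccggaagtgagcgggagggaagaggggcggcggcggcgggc
Mcm5: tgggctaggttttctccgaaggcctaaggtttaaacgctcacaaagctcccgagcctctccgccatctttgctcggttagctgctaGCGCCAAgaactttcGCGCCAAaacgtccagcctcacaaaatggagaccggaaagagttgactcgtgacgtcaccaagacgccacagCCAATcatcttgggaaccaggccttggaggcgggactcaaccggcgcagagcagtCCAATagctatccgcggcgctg

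The Ccnb2 window held CCAAT 3 times and TTTGAA 1 time, the Cenpf window held CCAAT 2 times, and the Mcm5 window held CCAAT 2 times and TTGGCGC 2 times. Promoters were found for 47 of the 58 genes of a list of G2/M and mitosis genes. CCAAT was present in 36 of these 47 (76.6%), against 34.5% of the 27025 genes with a promoter in the table, and TTTGAA in 14 (29.8%), against 16.3%. Over all genes of the table the first E2F form was in 3.84% and the second in 2.05%. In the list of resting T cell genes, with promoters for 17 of 20, CCAAT was in 47.1% and TTTGAA in 11.8%. For the G1/S and replication list the same count is void, because a promoter was found for only 36 of its 47 genes (76.6%). A match is a description of the letters in the window and not evidence of binding.

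The 4 selection genes marked the members by construction. The sum ran from 3 to 52 UMIs with a median of 10, and 85 members (34.8%) had 15 or more. At the edge of the rule, 34 members had exactly 3 UMIs, and 95 Treg cells just outside it had 2. Mki67, a coat protein of mitotic chromosomes, was found in 215 members at 363 CPM (summed UMIs of the gene per 1000000 UMIs of the same cells). Top2a, the topoisomerase that untangles replicated DNA, was found in 206 members at 387 CPM. Birc5, the survivin subunit of the chromosomal passenger complex, was found in 195 members at 405 CPM. Cdk1, the kinase that starts mitosis, was found in 119 members at 91.6 CPM. None of these values is a finding, since the genes chose the cells.

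**Figure D1:**
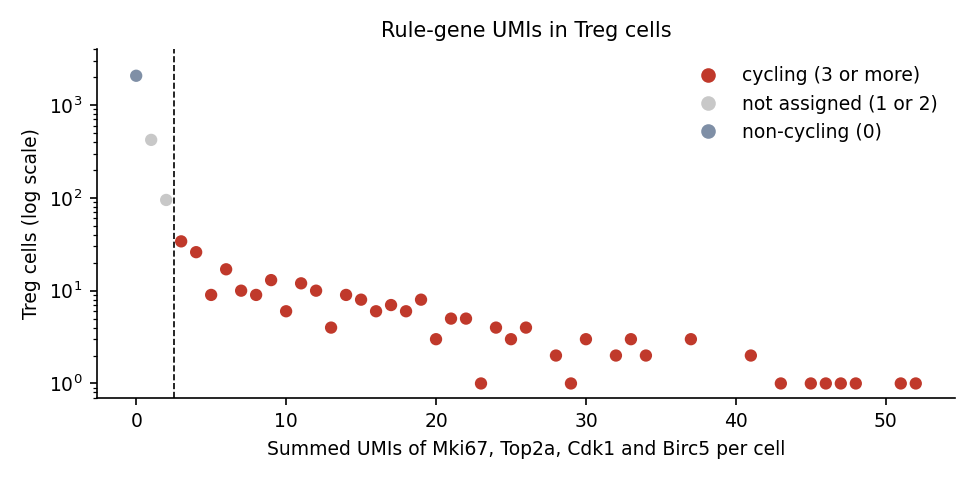
Number of Treg cells (vertical axis, log scale) at each summed UMI count of Mki67, Top2a, Cdk1 and Birc5 (horizontal axis); each point is 1 count of UMIs, and the dashed line marks the limit of the rule. The 244 members lie to the right of the line, from 3 to 52 UMIs, without a gap to the 95 cells at 2 UMIs.

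Far more UMIs were counted in cycling Treg cells than in the others. Their median was 9750 UMIs (from 793 to 50636) and 2618 detected genes, against 2696 UMIs and 1185 genes in non-cycling Treg cells, a ratio of 3.62 in UMIs. The ratio was 3.57 when all genes of the cell cycle lists were left out of the count. Mitochondrial shares were close, with medians of 1.85% and 1.82%. The upper limit of 2500 detected genes in the study's methods was not applied, and 146 of the 244 members lie above it. Because the rule counts UMIs, depth raises the chance of passing it, and leaving out the cell cycle lists does not remove that. The main comparisons are therefore repeated below in cells of like depth.

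The Foxp3 label was checked next. Foxp3 was at 283 CPM in members and 693 CPM in non-cycling Treg cells, but the rule requires a UMI in every cell, which raises the CPM of shallow cells. With UMI totals between 6251 and 13039, the middle range of the members, and without the marked cells described next, Foxp3 was at 328 CPM in 118 members and 370 CPM in 126 non-cycling cells. A single Foxp3 UMI was all that 60 members had. For background, 72 of 290 cycling cells with a CD8 UMI (24.8%, median of 11769 UMIs) also had a Foxp3 UMI. After each cell was thinned to 1500 UMIs, 34.9% of members (28.9 to 41.2) and 6.60% of those CD8 cells (4.02 to 10.1) had one. The second share includes CD8 cells without any Foxp3 UMI, whereas every member had to have one, so these shares are not alike in selection. Of the 72 cycling CD8 cells that had a Foxp3 UMI, 19 still had one after thinning. Single members with 1 Foxp3 UMI cannot be told from background.

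RNA of other cell types was present in a few members. Summed UMIs of 8 melanoma genes such as Pmel, Mlana and Dct, and of 12 macrophage genes such as Lyz2 and C1qb, reached at least 10 in 12 members and in 44 non-cycling Treg cells, here called marked cells. The 12 members had up to 531 melanoma UMIs and up to 338 macrophage UMIs, 8 of them had fewer than 8 UMIs of CD3 and TCR constant genes, and 9 had a single Foxp3 UMI. They held 9.78% of all UMIs of the members. With them the melanoma list was at 532 CPM in members and 51.4 CPM in non-cycling cells, and without marked cells at 10.8 and 20.5 CPM. The macrophage list was at 428 and 474 CPM with them, and at 29.4 and 65.2 CPM without. B cell genes were low in both groups, at 11.7 and 18.7 CPM, with Ms4a1 and Pax5 at 0 UMIs in members. A UMI of this list was found in 9.43% of members and 4.30% of non-cycling cells. The list leaves out Igkc, an antibody gene with 146 UMIs in the unmarked members. The mark itself does not count B cell or dendritic cell genes. Of the cells with a productive beta chain, 17 of 186 members (9.14%) and 129 of 1136 non-cycling cells (11.4%) had 2 of them. The members are therefore called cycling Treg cells by their rule, and values without marked cells are given where they differ.

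The cycling share of Treg cells was 8.61% (7.61 to 9.71). It was 2.87% (2.15 to 3.74) in 1813 conventional T (Tconv) cells, taken as Cd4-positive cells without Foxp3 or CD8 UMIs, and 14.8% (12.9 to 16.8) in 1346 CD8+ T cells without Foxp3 or Cd4 UMIs. Treg cells lay between the others, with no overlap of the intervals. Median depths of these classes were 2974, 2543 and 3848 UMIs in the same order. At an equal depth of 1500 UMIs, with at least 2 UMIs of the selection genes required, the shares were 6.52% (5.56 to 7.58) for Treg cells, 2.48% (1.75 to 3.40) for Tconv cells and 7.03% (5.67 to 8.60) for CD8+ T cells. Treg cells stayed above Tconv cells in these thinned shares, and the Treg interval overlapped that of CD8+ T cells. The classes themselves were set on unthinned counts, where a stray Foxp3 UMI moves a cell into the Treg class. Of cells with a CD8 UMI 22.1% had a Foxp3 UMI, and of the cycling ones 24.8%. How far this moved the shares was not tested. Thinning left out 454 Treg, 322 Tconv and 108 CD8+ T cells that were shallower.

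Genes were then compared between cycling and non-cycling Treg cells as a ratio of CPM. Of 5278 genes that averaged 20 CPM or more over both groups, 394 (7.46%) were at least 2-fold higher in cycling cells and 346 (6.56%) were at 0.5 or below. The median ratio was 0.938. Without marked cells the counts were 360 and 336 of 5221 genes (6.90% and 6.44%), of which 342 and 292 were among the first. In the cells of like depth without marked cells, 118 against 126, 314 of 5065 genes (6.20%) were higher and 127 (2.51%) were lower. Of the 394 higher genes 245 (62.2%) were called again, but of the 346 lower genes only 69 (19.9%). Median UMIs were still 9658 and 7404 in these groups. The non-cycling cells used here are the deep end of their group, whose upper quartile was 3983 UMIs, and may not be typical of it. Before marked cells were left out they numbered 148, of which 22 were marked, against 44 marked among all 2072 non-cycling cells. The genes that selected the cells are left out throughout, and all other ratios come from the same counts of the same cells, so they describe the members and test nothing.

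The 12 highest ratios all belonged to genes of division. In non-cycling cells these genes lay between 0.152 CPM (Shcbp1) and 3.80 CPM (Cenpf). All 12 therefore passed the filter of 20 CPM only through the cycling cells and had to be higher there. Shcbp1, which acts at the midbody, had 108 UMIs in members and 1 in non-cycling cells, a ratio of 277 (48.7 to 11039). Knl1, the kinetochore scaffold, had 142 against 3 UMIs, a ratio of 121 (40.7 to 596), and Pimreg had 119 against 2 UMIs, a ratio of 153 (41.3 to 1274). These 3 genes were nearly silent in non-cycling Treg cells. Ccna2, cyclin A2, was better measured, at 177 (161 to 194) against 3.19 CPM (1.98 to 4.88), a ratio of 55.4 (35.8 to 90.4). Plk1, a mitotic kinase, was at 49.1 against 0.912 CPM, and Cenpe, a kinesin of the centromere, at 74.0 against 1.52 CPM. Cdca2, Cit, Pbk, Esco2, Cenpf and Ckap2l completed the 12, with ratios from 54.4 down to 42.1.

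Replication genes were higher in cycling Treg cells. Of 47 genes 34 passed the filter and these were at least 2-fold higher, with a median ratio of 6.88. Of the 34, 22 were below 20 CPM in non-cycling cells, so they passed only through the cycling cells and had to be higher there. At like depth 34 genes were tested, 33 of them among the first, and all were called higher with a median of 4.91. The same filter applied there, so genes under 20 CPM in non-cycling cells, such as Tk1 at 12.1 CPM, again had to be higher. Rrm2, the regulated subunit of ribonucleotide reductase, was at 146 against 5.17 CPM, a ratio of 28.3 (19.9 to 41.5) that was also 28.3 (11.9 to 88.5) at like depth. Tk1 and Tyms, which make thymidine nucleotides, had ratios of 16.9 (12.6 to 22.9) and 12.3 (9.48 to 16.1). The MCM helicase genes Mcm5 and Mcm3 had ratios of 9.40 (7.48 to 11.9) and 9.51 (7.73 to 11.8), which were smaller at like depth, 5.60 (3.72 to 8.75) and 4.47 (3.13 to 6.54). Mcm5 and Mcm3, at 27.3 and 37.4 CPM in non-cycling cells of like depth, passed the filter without the cycling cells and remained higher.

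Mitotic genes differed by more, and the selection genes lean to mitosis themselves. Of 58 genes 45 were tested and 43 were higher, with a median ratio of 23.2, and 36 of the 45 passed the filter only through the cycling cells. At like depth 45 of 46 were higher, and the median was 16.6 when 7 genes without a UMI in non-cycling cells were set at the bound that 3 UMIs give. Genes under 20 CPM in non-cycling cells, such as Ccnb1 at 1.01 CPM, again had to be higher there. Ccnb1 and Ccnb2, the mitotic B cyclins, had ratios of 39.4 (21.5 to 80.4) and 28.2 (20.2 to 40.4). Cenpa, the histone variant of centromeres, was already at 108 CPM in non-cycling cells and reached 376 CPM. Smc4, a condensin subunit, fell just short with a ratio of 1.99, and Pttg1, the securin gene, was the exception with 76.0 against 101 CPM, a ratio of 0.749 (0.635 to 0.879) that was 0.864 (0.623 to 1.20) at like depth. Of 15 genes of a DNA repair list 3 were tested and all 3 were higher, and the other 12 did not pass the filter. All 3 passed only through the cycling cells and had to be higher there.

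Regulators of the cycle moved in both directions. Among 5 tested inhibitors of cyclin-dependent kinases, Cdkn3, a phosphatase that peaks late in the cycle, was at 55.7 against 3.19 CPM, a ratio of 17.5 (11.0 to 29.1). Cdkn3 was the 1 inhibitor of the 5 that passed the filter only through the cycling cells and had to be higher there. Cdkn2c (p18) had a ratio of 2.5 (1.98 to 3.15), Cdkn1a (p21) one of 1.27 that did not reach 2, and Cdkn1b (p27), which holds resting cells in G0, was at 59.2 against 158 CPM, a ratio of 0.376 (0.315 to 0.446). The Cdkn1b ratio at like depth was 0.740 (0.539 to 1.01), an interval that includes 1. Of 11 tested cyclins, kinases and E2F or RB family genes of G1, 5 were higher and 0 lower. Of these 11, 4 passed the filter only through the cycling cells and had to be higher there. Cdk4 had a ratio of 3.31 (2.89 to 3.80), whereas Ccnd2, the D cyclin most abundant here, was at 218 against 314 CPM, a ratio of 0.694 (0.631 to 0.762). At like depth the Cdk4 ratio was 2.01 (1.56 to 2.63) and that of Ccnd2 0.589 (0.493 to 0.702).

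Chromatin genes were higher as well. Of 14 tested core, linker and variant histone genes 9 were at least 2-fold higher, with Hist1h2ap, a replication-dependent H2A gene, at 142 against 8.66 CPM and H2afx, the variant phosphorylated at breaks, at 263 against 36.5 CPM. Hist1h2ap was the 1 gene of the 14 that passed the filter only through the cycling cells and had to be higher there. Transcripts of replication-dependent histones largely lack poly(A) tails and the gene copies are near-identical, so their counts are uncertain. Of 21 tested genes of the nuclear envelope, chromatin and spindle tubulin, 18 were higher and 0 lower, with a median ratio of 3.51 that was 3.11 at like depth. In all cells 1 of these 21 passed the filter only through the cycling cells. Tuba1b, a tubulin, had a ratio of 7.58 (6.83 to 8.42) and Tubb5 one of 4.83 (4.54 to 5.14). Hmgb2, a chromatin protein, was the most abundant gene of the mitosis list, at 2180 against 416 CPM.

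**Figure D2:**
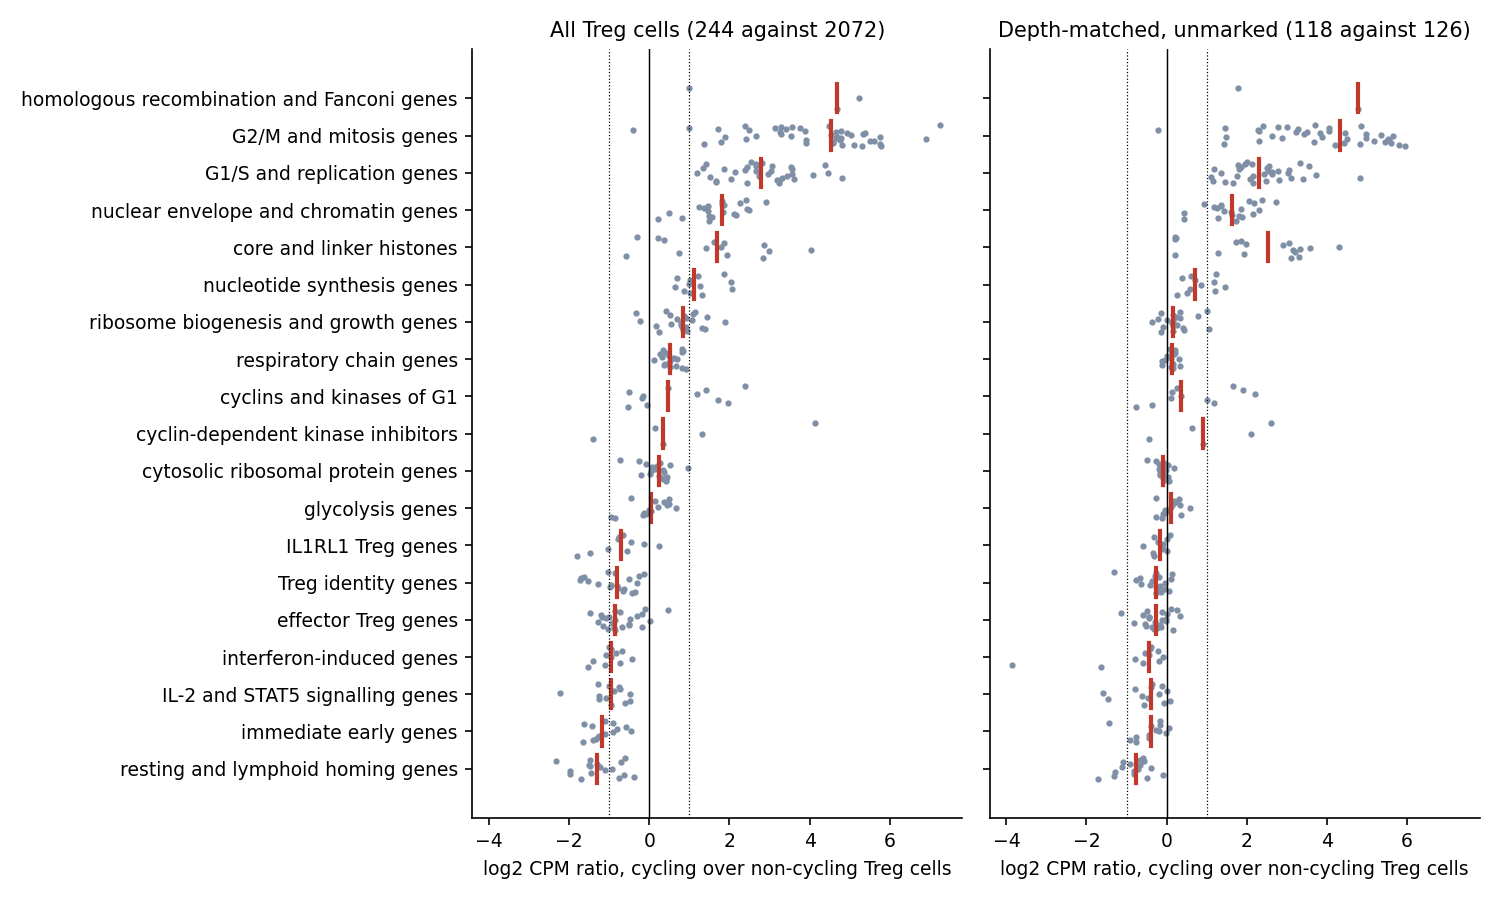
Ratio of CPM in cycling over non-cycling Treg cells (log2, horizontal axis) for each tested gene (grey points) of 19 gene lists, with the list median in red; left, all cells, and right, cells of like depth without marked cells. Genes with no UMI in non-cycling cells are not drawn as points, and their ratios enter the right-hand medians as the highest values; dotted lines mark 2-fold. The division lists lie to the right of the lines in both panels, whereas the Treg lists move from medians of 0.555 to 0.613 on the left to 0.832 to 0.896 on the right.

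Genes of growth were higher only in part. Of 23 tested genes of ribosome biogenesis 7 were higher and 0 lower, with a median of 1.79, but at like depth only 2 of 21 were higher and the median was 1.12. Srm, spermidine synthase, had a ratio of 3.74 (2.96 to 4.74) in all cells and 1.12 (0.667 to 1.91) at like depth. Nucleotide synthesis genes kept more of their difference, with 9 of 12 higher and a median of 2.18, and 4 of 11 and 1.63 at like depth. In all cells 4 of these 12 genes, and 3 of the 23 of ribosome biogenesis, passed the filter only through the cycling cells. Impdh2, the limiting enzyme of guanine nucleotide synthesis, had ratios of 4.16 (3.59 to 4.84) and 2.32 (1.73 to 3.15). Glycolysis genes had 0 of 15 in either direction and a median of 1.03. Respiratory chain genes had 0 of 19 and a median of 1.44, and cytosolic ribosomal protein genes 0 of 20 and a median of 1.19; at like depth these medians were 1.09 and 0.943.

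The Treg program was lower in CPM in cycling cells, but most of that difference was absent at like depth. Of 19 tested Treg identity genes 6 were at 0.5 or below and 0 were higher, with a median of 0.574, and at like depth 1 of 19 was lower with a median of 0.839. Ctla4, the inhibitory receptor of Treg cells, was at 733 against 1164 CPM, a ratio of 0.630 (0.598 to 0.662), and at 1.04 (0.947 to 1.15) at like depth. Ikzf2, which encodes Helios, had ratios of 0.643 (0.605 to 0.682) and 0.976 (0.875 to 1.09). Il2ra, the alpha chain of the interleukin-2 receptor, had 0.739 (0.683 to 0.798) and 0.832 (0.713 to 0.970). Il10, a suppressive cytokine, had 0.322 (0.255 to 0.402) and 0.875 (0.566 to 1.35). Swap70 was the gene still lower, at 0.404 (0.238 to 0.667).

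Effector Treg genes showed the same shift. Of 24 tested 7 were lower and 0 higher with a median of 0.555, and at like depth 1 of 24 was lower with a median of 0.832. Gzmb, a protease of killer granules, had ratios of 0.436 (0.412 to 0.460) and 0.663 (0.598 to 0.736), and the chemokine gene Ccl5, the gene still called, had 0.362 (0.339 to 0.386) and 0.456 (0.407 to 0.510). Lgals1, galectin-1, was higher with a ratio of 1.38 (1.34 to 1.42), and 1.19 (1.13 to 1.25) at like depth. The study's IL1RL1 Treg cells bear the interleukin-33 receptor. Of 10 tested genes of that state 3 were lower, Il1rl1 with a ratio of 0.286 (0.226 to 0.359), Areg, the growth factor amphiregulin, with 0.358 (0.331 to 0.387), and Sdc4 with 0.488. At like depth 0 of 10 were called. Il1rl1 was then at 41.6 against 51.6 CPM, a ratio of 0.806 (0.531 to 1.22), and Areg at 0.786 (0.686 to 0.900). Penk, the enkephalin precursor, changed side, from 1.18 (1.08 to 1.30) to 0.665 (0.558 to 0.793).

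Genes of resting and recirculating T cells had the lowest median of the 19 lists in both comparisons. Of 17 tested 11 were at 0.5 or below with a median of 0.407, and at like depth 5 of 16 with a median of 0.593. Klf2, which maintains quiescence and homing receptors, was at 178 against 703 CPM, a ratio of 0.254 (0.230 to 0.279), and at 0.569 (0.492 to 0.658) at like depth. Il7r, the interleukin-7 receptor, had 0.255 (0.219 to 0.296) and 0.573 (0.435 to 0.751). Tcf7, a factor of memory-like T cells, had the same ratio in both, 0.306 (0.217 to 0.422) and 0.306 (0.177 to 0.511). S1pr1, the receptor for leaving tissue, had 0.364 (0.257 to 0.504) and 0.408 (0.231 to 0.700). Per cell, the list was at a median of 1279 CPM in the 118 members, from 108 to 7266, and at 2216 CPM in the 126 others, from 431 to 7180. The ranges overlapped almost fully, and 23 members (19.5%) lay above the median of the others.

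Lists of signalling genes were lower mainly when all cells were compared. Immediate early genes had 9 of 14 lower with a median of 0.442, and 1 of 13 with 0.765 at like depth. Interferon-induced genes had 5 of 11 with 0.516, and 2 of 11 with 0.740. Genes of interleukin-2 and STAT5 signalling had 6 of 13 with 0.513, and 2 of 13 with 0.761, where Stat5a, which relays the signal, was at 0.362 (0.215 to 0.592) and Socs3, a feedback inhibitor, at 0.334 (0.204 to 0.533).

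The 12 lowest ratios were of another kind. Socs3, Kdm5b, Slfn5, Klf3, Ly6c1, Ly6c2, Neurl3 and Tcp11l2 had ratios from 0.116 to 0.214, and from 0.127 to 0.239 without marked cells. All of these except Socs3, at 23.8 CPM, were under 20 CPM in members, as were Thbs1 and Ccl7. Such genes passed the filter only through the non-cycling cells and had to be lower in members. At like depth Neurl3 was at 0.283 (0.129 to 0.572) and Socs3 at 0.334 (0.204 to 0.533). Neurl3, at 9.73 CPM in members there, again had to be lower. Klf3, Ly6c1 and Tcp11l2 did not pass the filter at like depth. Kdm5b, a histone demethylase, was at 17.1 against 85.2 CPM, and Slfn5 at 10.9 against 54.7 CPM. Thbs1, Ccl7 and Spp1 moved with the marked cells. Cxcl2, a chemokine gene, had 0.209 in all cells, 0.358 without marked cells and 0.201 (0.128 to 0.305) at like depth. Spp1, osteopontin, was at 31.6 against 156 CPM and, without marked cells, at 2.59 against 8.19 CPM. Thbs1 had 6 UMIs in members and 252 in non-cycling cells, with 0 UMIs in members once marked cells were left out.

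Values by the number of selection UMIs show how sharp the limit is. Replication genes were at 724 CPM at a sum of 0, at 1111 at 1, 1508 at 2 and 2468 at 3, then at 4272 from 4 to 6, 5286 from 7 to 14 and 4060 at 15 or more. Mitosis genes were at 1168, 1294, 1744, 3098, 4577, 7361 and 11503 CPM in the same order. Genes of resting T cells were at 3460, 3162, 2425, 2177, 1301, 1153 and 1295 CPM. Treg identity genes were at 7519, 7401, 7141, 4495, 5069, 4771 and 4336 CPM. Of the 4 lists only mitosis genes were highest at the top, and the sum is made of genes that lean to mitosis themselves. Macrophage markers moved too, with 204 CPM at 2 UMIs and 2717 at 3, and melanoma markers were at 953 CPM at 15 or more. Without marked cells, which leaves 32 cells at 3 UMIs and 79 at 15 or more, Treg identity genes were at 7236 CPM at 2 UMIs, 4909 at 3 and 4847 at 15 or more, and mitosis genes at 1768, 3331 and 12431 CPM. Median depth moved with the sum, with 2696, 3069, 3743, 6401, 8910, 8792 and 11326 UMIs per cell in the same order, and its part in these levels was not tested.

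**Figure D3:**
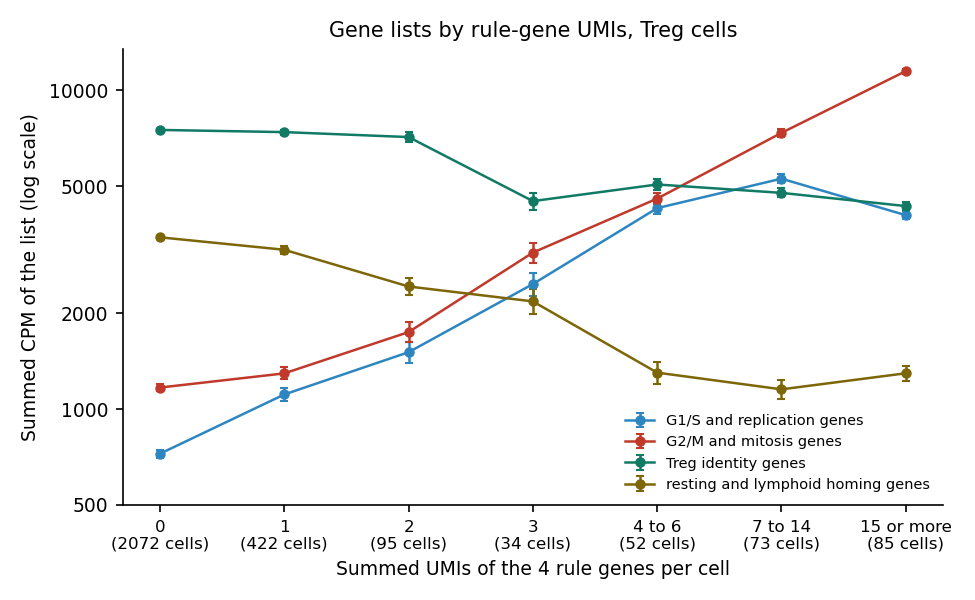
Summed CPM of 4 gene lists (vertical axis, log scale) in Treg cells grouped by summed UMIs of the 4 selection genes (horizontal axis, with numbers of cells); points are sums over the cells of a group and bars are exact Poisson 95% intervals. Replication and mitosis genes rise from 724 and 1168 CPM at 0 UMIs, and resting genes fall from 3460 CPM.

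At like depth single cells separated best by mitosis genes. The selection genes lean to mitosis themselves, so the rule favors this order and it tests nothing. In the 118 members these genes were at a median of 8077 CPM, from 669 to 25161, and in the 126 others at 1071 CPM, from 0 to 3518. Of the 118 members 99 lay above the highest non-cycling cell. Replication genes overlapped more, at a median of 4071 CPM (268 to 10478) against 697 CPM (0 to 6287), with 34 members above the highest of the others. Treg identity genes overlapped throughout, at 4779 CPM (768 to 14501) against 5624 CPM (1088 to 16713).

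Members differed among themselves in which step of division their RNA leaned to. For 221 of the 232 unmarked members, those with at least 10 UMIs on both lists together, the share of mitosis UMIs among mitosis and replication UMIs was computed without Hmgb2 and Stmn1. It ran from 6.25% to 100% with a median of 53.3%. The cells spread over the whole range, with 17 under 20% and 101 over 60%. They were split at this share into 3 ranges of 74, 73 and 74 cells, which are not cell types, and 32 and 24 cells lay within 5 percentage points of the limits. Median depth fell across the ranges, with 12419, 9677 and 7133 UMIs.

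**Figure D4:**
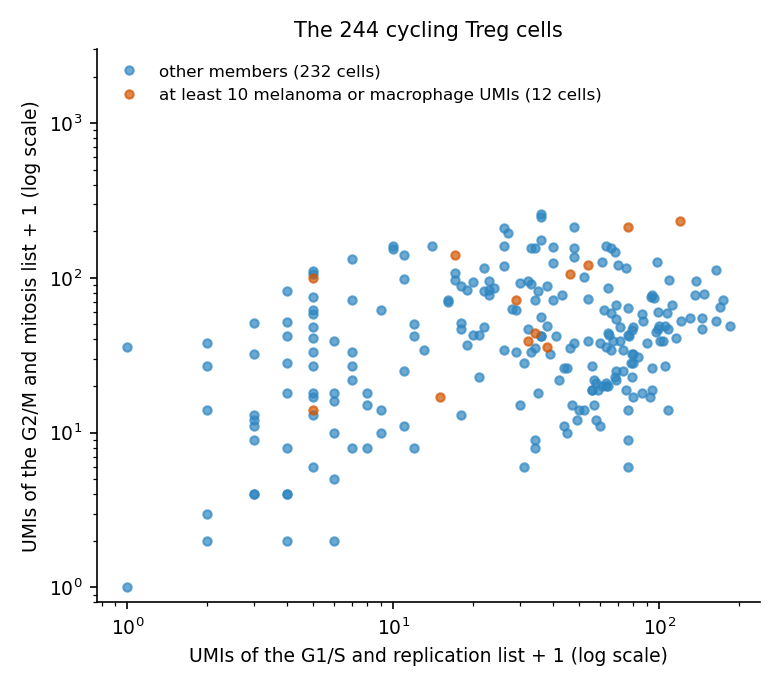
UMIs of the G2/M and mitosis list (vertical axis) against UMIs of the G1/S and replication list (horizontal axis), each plus 1 on a log scale, for the 244 members; each point is 1 cell, and the 12 members with at least 10 melanoma or macrophage UMIs are orange. Members spread from cells rich in replication RNA to cells rich in mitosis RNA without separate groups.

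Genes differed along this share. Birc5 was at 153, 459 and 770 CPM in the 3 ranges from the lowest mitosis share to the highest, and Mki67 at 184, 431 and 662 CPM, so the selection genes themselves leaned to mitosis. H2afx was at 87.4, 289 and 566 CPM, a ratio of 6.47 (5.07 to 8.34) of the highest range over the lowest. Tuba1c, a tubulin, had a ratio of 6.97 (4.84 to 10.3) and Tubb4b one of 4.43 (3.67 to 5.38), but other tubulins differed less, with 1.22 (1.06 to 1.41) for Tuba1b and 1.75 (1.60 to 1.93) for Tubb5. The list of nuclear envelope, chromatin and tubulin genes together had 1.17 (1.14 to 1.20). Among the inhibitors, Cdkn3 had 7.44 (4.28 to 13.7), Cdkn2d 4.45 (3.01 to 6.72) and Cdkn1b 3.0 (1.91 to 4.77), and Cdkn1a (p21) went the other way, at 159, 144 and 40.0 CPM, a ratio of 0.252 (0.155 to 0.392).

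At the replicating end, growth genes were higher. Ribosome biogenesis genes together were at 7957, 5704 and 3902 CPM, a ratio of 0.490 (0.468 to 0.514), and nucleotide synthesis genes at 1546, 1141 and 658 CPM, a ratio of 0.426 (0.379 to 0.477). Npm1, the abundant nucleolar protein, was at 1696, 1095 and 745 CPM. Srm had 141, 14 and 3 UMIs, a ratio of 0.0352 (0.00717 to 0.105). Cdk4 was at 262, 172 and 104 CPM and Ccnd2 at 304, 161 and 151 CPM. Il2ra was at 413, 396 and 211 CPM, and Ctla4 nearly level at 818, 819 and 719 CPM. Resting genes were highest toward mitosis, at 989, 1444 and 1738 CPM, as were interferon-induced genes, at 2319, 3647 and 4851 CPM. Depth moved with all of these values, and its part in them was not tested.

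Cycling Treg cells were set against the 45 unmarked cycling Tconv cells to see what distinguished them while dividing. Of 5121 genes 115 (2.25%) were at least 2-fold higher in the 232 unmarked cycling Treg cells and 133 (2.60%) were at 0.5 or below. None of 43 replication genes, 52 mitosis genes or 21 chromatin genes was called, with median ratios of 0.997, 0.863 and 0.995. Of 17 tested Treg identity genes only 1 was higher and 0 lower, with a median of 1.33. Of 24 tested effector Treg genes 1 was higher and 1 lower, with a median of 1.02. Penk was at 294 against 22.7 CPM, a ratio of 12.9 (6.24 to 32.3), and was 1 of 2 genes of the IL1RL1 list of 10 that were called. Il1rl1 itself was at 36.3 against 58.5 CPM, a ratio of 0.620 (0.370 to 1.10). Gzmb was level, with a ratio of 0.987 (0.849 to 1.15), and Ccl5 lower, with 0.384 (0.340 to 0.434). H2-Aa, an MHC class II gene usually expressed by antigen-presenting cells, had 284 UMIs against 1. Its ratio was 37.7 (6.72 to 1496), and the antibody gene Igkc had 146 against 4 UMIs. Depths differed, with medians of 9420 UMIs in the unmarked cycling Treg cells and 6597 over all 52 cycling Tconv cells. Tconv cells were defined by lack of a Foxp3 UMI, so shallow Treg cells can be among them.

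The lists were also compared within each lineage. The median ratio of replication genes, cycling over non-cycling without marked cells, was 7.64 in Treg cells, 7.28 in Tconv cells and 5.50 in CD8+ T cells, and that of mitosis genes 23.1, 24.2 and 14.9. Resting genes had medians of 0.398, 0.342 and 0.260. Treg identity genes had medians of 0.592 in Treg cells, 1.34 in Tconv cells and 0.953 in CD8+ T cells, and the value in Treg cells was 0.839 at like depth. Over all genes 10.5% were higher and 7.34% lower in cycling Tconv cells, and 8.33% and 6.89% in cycling CD8+ T cells. No test of these differences was possible, and the lineages were not matched in depth.

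The study distinguishes Treg states, and the cycling share was compared between Treg cells with and without a UMI of a state gene. All 2379 Treg cells with enough UMIs were thinned to 1500, and at least 2 UMIs of the selection genes were required. Among cells with an Il1rl1 UMI 15 of 296 were cycling (5.07%, 2.86 to 8.22), against 140 of 2083 without one (6.72%, 5.68 to 7.88). The difference was -1.65 percentage points (-4.14 to 1.67), an interval that includes 0. At a thinning to 2500 UMIs it was 6.45% against 11.2%, a difference of -4.77 points (-8.00 to -0.638). Of CD8+ T cells, 1.37% had an Il1rl1 UMI at 1500, against 12.4% of Treg cells. Cells with an Areg UMI were cycling in 5.46%, against 6.85% without, a difference of -1.39 points (-3.52 to 1.08).

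Resting genes marked cells with a lower share. The share was 4.13% with a Klf2 UMI and 8.15% without, a difference of -4.02 points (-5.96 to -2.02), and 3.85% with an Il7r UMI and 7.52% without, -3.67 points (-5.57 to -1.53). Gzmb and Tnfrsf9, the costimulatory receptor 4-1BB, also went with lower shares, by -2.81 (-4.85 to -0.777) and -2.59 points (-4.90 to -0.441), though for Gzmb the interval included 0 at 2500 UMIs, -1.42 (-4.52 to 1.60). Lgals1 went with a higher share, 7.16% against 2.24%, by 4.92 points (2.36 to 6.71), but at 2500 UMIs the difference was 4.13 (-4.12 to 8.82). Cells with a UMI of the interferon list, nearly all of them, had a share of 6.11%, against 14 of 73 without (19.2%), and at 2500 UMIs the interval of that difference, -45.7 to 0.0782, included 0. For Ccr8, a chemokine receptor of tumor Treg cells, the difference was 2.02 points (-0.575 to 5.06), for Ikzf2 -0.763 (-3.04 to 1.35) and for Pdcd1, which encodes PD-1, -1.08 (-4.04 to 3.19). At 2500 UMIs the difference was negative, with 0 outside its interval, for Itgae, -5.11 (-8.08 to -1.61), Klrg1, -4.57 (-7.46 to -1.54), and Tcf7 or Ccr7, -5.16 (-8.38 to -0.960), none of which met that at 1500. Cells counted as cycling were found with a UMI of every gene examined. Pdcd1 was seen in 8.36% of the Treg cells thinned to 1500 UMIs and Gzmb in 48.8%, so a cell without a UMI is not a cell without expression.

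**Figure D5:**
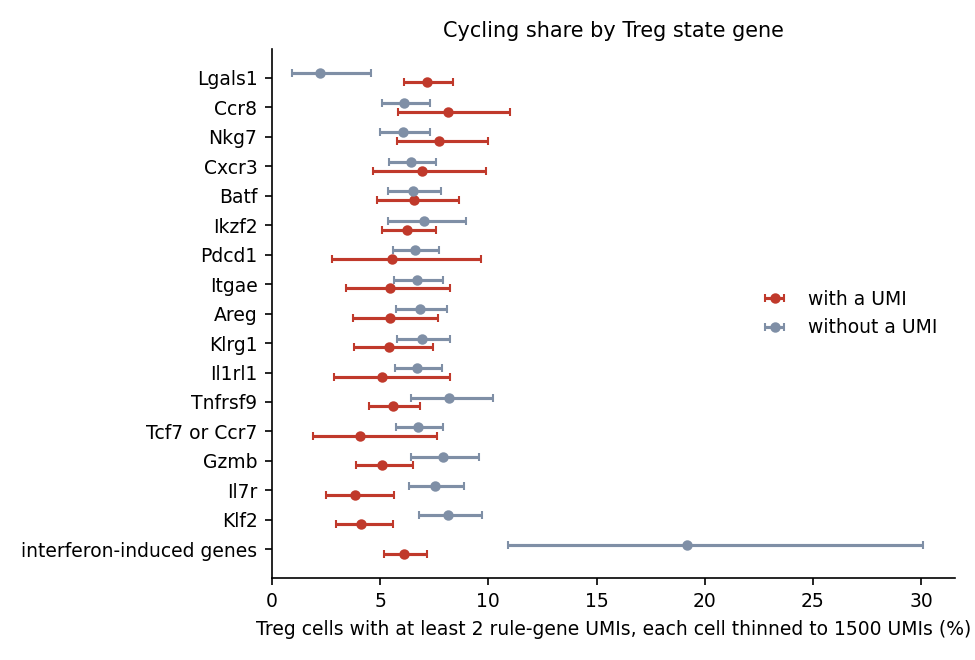
Share of Treg cells with at least 2 UMIs of the selection genes (horizontal axis, percent), among cells with a UMI (red) and without a UMI (grey) of each gene named at the left, every cell thinned to 1500 UMIs; bars are exact binomial 95% intervals. The shares with a Klf2 or Il7r UMI, 4.13% and 3.85%, lie below those without, and the share with an Lgals1 UMI, 7.16%, lies above.

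TCR sequences, which the rule did not use, gave the clones of 206 members. These fell into 204 clonotypes, so few members shared a clonotype with another member. Expanded clones, with at least 2 Treg cells in the library, held 17 of the 206 members (8.25%, 4.88 to 12.9) and 85 of 1333 non-cycling cells (6.38%, 5.12 to 7.82). The difference was 1.88 points (-1.79 to 6.67) and included 0. With clones counted by the beta chain alone, 29 of 186 members and 143 of 1136 non-cycling cells were in expanded clones, a difference of 3.0 points (-2.31 to 9.31). Of the 204 clonotypes 10 were also found in non-cycling Treg cells, 4 in Treg cells with a sum of 1 or 2, 5 in Tconv cells and 0 in CD8+ T cells. A TCR was assembled more often in members (84.4%) than in non-cycling cells (64.3%), which were shallower.

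Of the clonotypes 2 held 2 cycling cells each, and they are shown with a clone that spanned all 3 groups, as examples of clones with more than 1 Treg cell. Each line gives the CDR3 nucleotides of 1 chain, 5′ to 3′, as assembled from the cells. Clones 1 and 2 had 2 cycling cells each and no other Treg cell. Clone 3 had 1 cycling cell, 1 non-cycling cell and 1 cell with a sum of 1 or 2. Cells of clones 1 and 3 carried B16 tags.
clone 1 alpha (TRAV14D-3-DV8, TRAJ17): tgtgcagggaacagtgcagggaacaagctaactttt
clone 1 beta (TRBV2, TRBJ2-2): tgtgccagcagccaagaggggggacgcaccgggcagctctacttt
clone 2 alpha (TRAV6-6, TRAJ31): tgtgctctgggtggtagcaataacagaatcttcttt
clone 2 beta (TRBV31, TRBJ2-5): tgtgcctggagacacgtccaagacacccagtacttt
clone 3 alpha (TRAV6-7-DV9, TRAJ31): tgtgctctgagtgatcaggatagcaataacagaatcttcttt
clone 3 beta (TRBV26, TRBJ1-3): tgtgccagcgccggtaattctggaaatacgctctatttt

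The hashtags show the tumor of only a few members. The tag oligos were the following, and a cell was assigned to a tumor when it carried tag UMIs of that tumor and none of the other. No member had more than 2 UMIs of a tag.
B16 tag 1: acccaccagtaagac
B16 tag 2: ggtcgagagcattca
B16-IL33 tag 1: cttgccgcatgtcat
B16-IL33 tag 2: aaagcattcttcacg

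By this rule 36 of 281 B16 Treg cells (12.8%, 9.14 to 17.3) and 2 of 57 B16-IL33 Treg cells (3.51%, 0.428 to 12.1) were cycling. The difference of -9.30 points had an interval of -14.7 to 0.0480, which just included 0. With the tags numbered 1 alone the counts were 9 of 94 and 1 of 20, and with those numbered 2 alone 28 of 192 and 1 of 37, so both pairs of tags had the lower share in B16-IL33. Depth moved with the tumor, with a median of 3753 UMIs in tagged B16 Treg cells and 2643 in tagged B16-IL33 Treg cells. Within the middle range of member depth and without marked cells the difference was -11.9 points (-33.8 to 37.0). Tags were found in 38 of 238 members in the hashtag library (16%, 11.6 to 21.3) and in 242 of 2049 non-cycling cells (11.8%, 10.4 to 13.3). With 2 cycling cells in 1 group, each tumor being 1 sample, no difference between the tumors can be read from these shares.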

How the data were processed

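T cells of 1 pool were measured by 5′ single-cell RNA sequencing with hashtag and TCR libraries. The authors deposited raw counts of UMIs per gene and barcode on a combined human and mm10 reference (Cell Ranger 3.1.0 in the matrix header, 6.1.1 in the submitters' processing notes), counts of UMIs per tag, and counts of UMIs per TCR contig; the pipeline for the tags is not given in the sources used here. Barcodes shared by the gene expression and hashtag libraries numbered 11756, and 6665 were in the TCR table. Of 14035 barcodes, those with at least 200 detected mouse genes and under 5% mitochondrial UMIs were kept. No upper limit on genes was set, and no doublet caller was run; cells with 2 beta chains were left out as an alternative.

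UMIs were summed over cells as CPM. Genes averaging 20 CPM or more over both groups were compared, and a ratio of at least 2 or at most 0.5 was called. A gene under 20 CPM in one group could pass only through the other and then had to be higher there, also at like depth. Named genes were the 12 highest and 12 lowest ratios, TCR genes left out, and up to 6 per list by extreme ratio or defining role. In the text like depth means UMI totals within the interquartile range of the members, without cells of at least 10 melanoma and macrophage UMIs; leaving out those cells was chosen after seeing the data. The cells, gene lists and comparisons were chosen with earlier results of these data known. Intervals (95%; Clopper-Pearson for shares, Poisson for counts, conditional binomial for ratios, square-and-add for differences) were computed in SciPy 1.17.1 under Python 3.11.15. A count of 0 allows up to 3 counts. On counts simulated for the cycling and non-cycling Treg groups, with 200 of 5221 genes altered, the sign was recovered for 100% of altered genes, and intervals covered the simulated ratio for 96.5% of altered and 95.6% of other genes. The simulated counts had no variation between cells, as the intervals assume, so this checks the computation only. Genes under 20 CPM in non-cycling cells were not part of it. Each thinned share comes from 1 random draw. Promoters were matched by symbol to RefSeq (GRCm38.p6).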

Additional observations from a re-analysis of the deposited data

How the results depend on the processing

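Of 61 named and list genes followed, 58 stayed on the same side of a ratio of 1 in every alternative where they were tested. Ctla4, Ikzf2 and Penk changed side, only within the interquartile range of member UMIs. Alternatives in which a gene did not pass the filter, such as like depth for Thbs1, Klf3 and Pbk, were not counted. Some of the genes were picked for extreme ratios in these same cells. The share of cycling Treg cells was 3.76% with at most 2500 detected genes, 12% and 6.18% with a limit of 2 or 6 selection UMIs, 11.1% with at least 2 Foxp3 UMIs, 10.8% with a Cd4 UMI required, 6.95% without any cell holding a UMI of another cell type, 3.70% with every cell thinned to 1500 UMIs, and 36.3% and 39.2% within the interquartile range of member UMIs with and without marked cells. Lower genes numbered 191 with at most 2500 genes, 219 with a limit of 2 selection UMIs, and 220 within the interquartile range of member UMIs (127 also without marked cells). With a mean of at least 5 CPM there were 825 higher and 747 lower genes, and at 1.5-fold 857 and 1072. Dividing ratios by their median gave 457 higher and 269 lower genes in place of 394 and 346. The difference by Il1rl1 was -4.77 points at 2500 UMIs, and that between tumors was -15.8 points with at least 2 tag UMIs. The causes were not tested. Ratios of mitotic genes could not be given where non-cycling cells had 0 UMIs. A limit of 2 selection UMIs gives no other value for the Il1rl1 result, which uses it. No paired analysis was possible because there was 1 pooled library and no result comes from a test.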
